A study of Mus musculus with 17 samples.

Results

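The cytochrome P450 genes were taken as the start sites whose RefSeq transcript maps to a symbol made of Cyp, a family number, a subfamily letter and a gene number. This rule found 113 rows of the deposited tables, which are 106 distinct start sites and 103 genes, of 24084 distinct start sites and 21478 genes with a symbol in all. Where a gene had more than 1 start site, that with most signal over both deep libraries was used. Sperm of C57/B6J mice aged 10 weeks, collected from cauda epididymis and vas deferens and fixed with formaldehyde, were set against embryonic stem (ES) cells of the mouse line E14, of 129 X Ola background, grown without feeders. Nuclei were digested with micrococcal nuclease (MNase), which cuts DNA that protein does not hold, and the fragments left over were sequenced from both ends. For the ES cells and for sperm of the standard digestion, the main pair here, the digest was spun and the supernatant was read. Sperm were also digested with 0.5, 2, 10 and 50 units and not spun, and with 1, 5, 20 and 100 units and then parted by a spin into supernatant and pellet. Every group held 1 library, so no difference between groups was tested and no p-value is given. All intervals are exact 95% intervals that cover counting error only.

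P450 enzymes are heme proteins that insert an atom of oxygen into lipophilic substrates. The Cyp1, Cyp2 and Cyp3 families clear drugs and other foreign compounds, mostly in liver, gut and lung, and Cyp4 enzymes hydroxylate fatty acids. The other families make or break down bile acids, steroid hormones, vitamin D and retinoic acid, each in few tissues. Many Cyp2, Cyp3 and Cyp4 genes stand in tandem arrays of close copies, whereas the biosynthetic genes mostly stand alone. In mature sperm most histones have been replaced by protamines.

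A cluster was defined as 3 or more P450 genes whose start sites follow each other within 500 kb. By this definition 76 genes lay in 8 clusters and 27 were dispersed, some of them as close pairs such as Cyp11b1 with Cyp11b2 and Cyp26a1 with Cyp26c1. The deposited tables label promoters HCP, ICP or LCP, taken to mean high, intermediate and low CpG content, and 52 of the 106 start sites carried a class, 15 high, 10 intermediate and 27 low. Of the genes, 3 clustered and 12 dispersed ones had a high-CpG promoter, 7 clustered and 3 dispersed ones an intermediate-CpG promoter, and 18 clustered and 8 dispersed ones a low-CpG promoter. The remaining 48 clustered and 4 dispersed genes had no class in the tables used here.

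RefSeq promoters of the assembly GRCm38.p6, which run from 250 bases before to 50 bases after a gene's start, matched 76 of the 103 genes. They held a median of 17 CpG in high-CpG members (range 2 to 31), 4.5 in intermediate-CpG members (1 to 6) and 2 in low-CpG members (0 to 7). The medians over all genes of these classes were 22, 6 and 2. To show what the classes mean in letters, the clustered and the dispersed member with the most fragments among those with a RefSeq promoter are given for each class, 5' to 3' along transcription, with every CpG in capitals. They are Cyp2s1 (chr7:25816476-25816775, minus strand) and Cyp20a1 (chr1:60343050-60343349, plus) of the high-CpG class, Cyp2j9 (chr4:96591436-96591735, minus) and Cyp8b1 (chr9:121916256-121916555, minus) of the intermediate class, and Cyp2j6 (chr4:96553602-96553901, minus) and Cyp2ab1 (chr16:20325355-20325654, minus) of the low-CpG class. The last lines give the promoters with the highest and the lowest ratio of sperm to ES cells among genes with 30 or more fragments, Cyp2c37 (chr19:39992174-39992473, plus) and Cyp26b1 (chr6:84593761-84594060, minus), chosen after their values were seen.
Cyp2s1: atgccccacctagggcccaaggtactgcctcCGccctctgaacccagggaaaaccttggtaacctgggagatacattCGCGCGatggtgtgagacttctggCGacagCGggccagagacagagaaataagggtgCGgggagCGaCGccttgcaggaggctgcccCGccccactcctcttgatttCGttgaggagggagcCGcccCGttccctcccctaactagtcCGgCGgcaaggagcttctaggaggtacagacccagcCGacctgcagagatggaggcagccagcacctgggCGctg
Cyp20a1: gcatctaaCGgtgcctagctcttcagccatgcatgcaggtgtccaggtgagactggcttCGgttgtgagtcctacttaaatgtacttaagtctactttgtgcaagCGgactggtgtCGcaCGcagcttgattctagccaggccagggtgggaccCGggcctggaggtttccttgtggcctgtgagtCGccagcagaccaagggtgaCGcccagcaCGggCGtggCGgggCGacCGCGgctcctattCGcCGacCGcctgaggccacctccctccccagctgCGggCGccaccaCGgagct
Cyp2j9: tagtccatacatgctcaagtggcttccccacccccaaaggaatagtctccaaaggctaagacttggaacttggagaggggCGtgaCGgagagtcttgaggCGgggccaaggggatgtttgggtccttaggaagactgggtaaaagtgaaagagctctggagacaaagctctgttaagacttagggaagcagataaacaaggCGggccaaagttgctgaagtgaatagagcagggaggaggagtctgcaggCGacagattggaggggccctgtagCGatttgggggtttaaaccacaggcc
Cyp8b1: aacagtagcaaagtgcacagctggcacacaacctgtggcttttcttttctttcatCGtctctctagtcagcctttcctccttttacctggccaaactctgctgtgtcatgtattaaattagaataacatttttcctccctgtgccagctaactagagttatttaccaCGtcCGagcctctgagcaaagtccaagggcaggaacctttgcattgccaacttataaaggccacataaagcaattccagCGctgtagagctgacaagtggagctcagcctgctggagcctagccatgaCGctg
Cyp2j6: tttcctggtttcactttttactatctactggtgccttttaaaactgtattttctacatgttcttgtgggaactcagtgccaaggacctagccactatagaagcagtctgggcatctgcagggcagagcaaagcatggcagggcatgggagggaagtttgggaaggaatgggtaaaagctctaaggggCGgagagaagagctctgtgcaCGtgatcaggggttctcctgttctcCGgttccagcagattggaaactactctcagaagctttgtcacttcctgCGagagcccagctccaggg
Cyp2ab1: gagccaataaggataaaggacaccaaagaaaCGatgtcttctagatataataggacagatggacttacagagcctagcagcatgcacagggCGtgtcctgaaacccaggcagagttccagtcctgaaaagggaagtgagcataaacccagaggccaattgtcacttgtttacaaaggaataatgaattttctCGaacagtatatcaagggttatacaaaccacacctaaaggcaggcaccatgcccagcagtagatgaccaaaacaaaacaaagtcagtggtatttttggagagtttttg
Cyp2c37: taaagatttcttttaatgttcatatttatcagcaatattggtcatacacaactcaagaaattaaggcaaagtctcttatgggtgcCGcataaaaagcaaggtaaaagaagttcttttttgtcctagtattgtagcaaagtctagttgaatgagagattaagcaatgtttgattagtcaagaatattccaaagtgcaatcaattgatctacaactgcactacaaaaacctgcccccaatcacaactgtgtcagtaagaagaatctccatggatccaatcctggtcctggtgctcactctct
Cyp26b1: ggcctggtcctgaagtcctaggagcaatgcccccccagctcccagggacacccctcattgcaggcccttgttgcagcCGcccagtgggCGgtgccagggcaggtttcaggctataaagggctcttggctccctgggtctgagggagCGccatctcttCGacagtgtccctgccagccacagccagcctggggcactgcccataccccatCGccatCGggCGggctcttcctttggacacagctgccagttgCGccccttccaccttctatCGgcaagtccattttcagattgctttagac
CpG count and base composition differed among these promoters. Cyp20a1 held 20 CpG at 63% GC and Cyp2s1 held 17 at 63%, against 1 CpG at 36.3% GC in Cyp2c37, while Cyp26b1 held 9 at 62.3%.

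Fragments were counted within 1000 bp of each start site. An average promoter held 21.6 fragments in sperm of the standard digestion and 32.2 in ES cells, but 0.213 to 1.03 in the titration libraries, so single genes were read only in the first pair and pooled genes in the rest. Stacked copies were read from isolated signals shaped like 1 fragment or a whole multiple of it. These were 2269 of 8223 isolated signals in sperm and 1330 of 5901 in ES cells. Of them 5.07% in sperm and 30.8% in ES cells were stacked copies, with means of 1.05 and 1.47 copies. Intervals that count each copy are therefore too narrow for ES cells. The sperm and ES cell libraries also differ in mouse strain, in enzyme per cell and in crosslinking, which the labels give for sperm only, none of which can be told apart from cell type. A log2 ratio below is that of a gene's share of all fragments near start sites, sperm over ES cells, with 1 fragment added to each count. Pooled ratios and intervals are made without that fragment.

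P450 promoters together held a slightly higher share of fragments in sperm than in ES cells, with single genes on both sides of 0. The pooled log2 ratio of the 103 genes was 0.13 (0.06 to 0.21), with 2526 fragments in sperm and 3431 in ES cells. Of the 103 genes, 80 had 30 or more fragments over both libraries. Among these, 5 were 2-fold or more higher in sperm (6.25%, against 6.28% of all 17903 genes of that depth) and 5 were 2-fold or more lower (6.25%, against 7.94%). Both shares were near those of all genes. The interval lay above 0 for 9 genes (11.2%, against 12.5% of all genes) and below 0 for 6 (7.5%, against 11.7%). With every count divided by the mean copies of its library, the numbers were 7 and 5. The median log2 ratio was 0.10 over P450 genes and -0.08 over all genes, and 46 P450 genes were above 0 (57.5%, against 45.4% of all genes).

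Clustered P450 genes together lay above 0, and the interval of the dispersed ones held 0. Here 0 is the average over all promoters. All low-CpG promoters had 0.31 (0.29 to 0.32), above the clustered P450 genes. The 76 clustered genes together held 1846 fragments in sperm and 2336 in ES cells, a pooled log2 ratio of 0.24 (0.15 to 0.33). The 27 dispersed genes held 680.0 fragments in sperm and 1095 in ES cells, a pooled log2 ratio of -0.11 (-0.25 to 0.03). Of the 56 clustered genes deep enough to be read, 35 were above 0 and 21 below, with a median of 0.15, and of 24 such dispersed genes 11 were above 0 and 13 below, with a median of -0.15. All 5 genes that were 2-fold or more higher in sperm were clustered. They were 8.93% of the deep clustered and 0% of the deep dispersed genes, against 6.28% of all genes. Of the 5 that were 2-fold or more lower 4 were dispersed, which is 16.7% of the deep dispersed genes, against 1.79% of the clustered ones and the 7.94% of all genes. These shares differ by CpG class too. Of all low-CpG genes 12.3% were 2-fold or more higher and 3.92% lower, and of all high-CpG genes 2.56% and 11.1%. Low-CpG promoters were the largest class among classed clustered genes and high-CpG ones among classed dispersed genes. How far class sets this contrast was not tested. Within 3 of the 4 unspun sperm libraries the clustered genes did not lie above ES cells, and their values are given with the titration.

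Within CpG classes the members lay close to 0. Low-CpG P450 promoters had a pooled log2 ratio of 0.10 (-0.02 to 0.22), below the 0.31 (0.29 to 0.32) of all 2837 low-CpG promoters, and the median over the 26 genes with 30 fragments was 0.09, against 0.25 over all low-CpG genes. Within that class the 18 clustered promoters had 0.20 (0.05 to 0.34) and the 9 dispersed ones -0.10 (-0.31 to 0.11), so these intervals overlap. High-CpG P450 promoters had -0.12 (-0.33 to 0.08), with -0.17 for the 3 clustered and -0.11 for the 12 dispersed ones, against -0.24 (-0.25 to -0.23) for all high-CpG promoters. Intermediate-CpG P450 promoters had 0.07 (-0.15 to 0.29), against 0.09 (0.08 to 0.10) for their class. The class is known for 28 of the 76 clustered genes only.

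**Figure D1:**
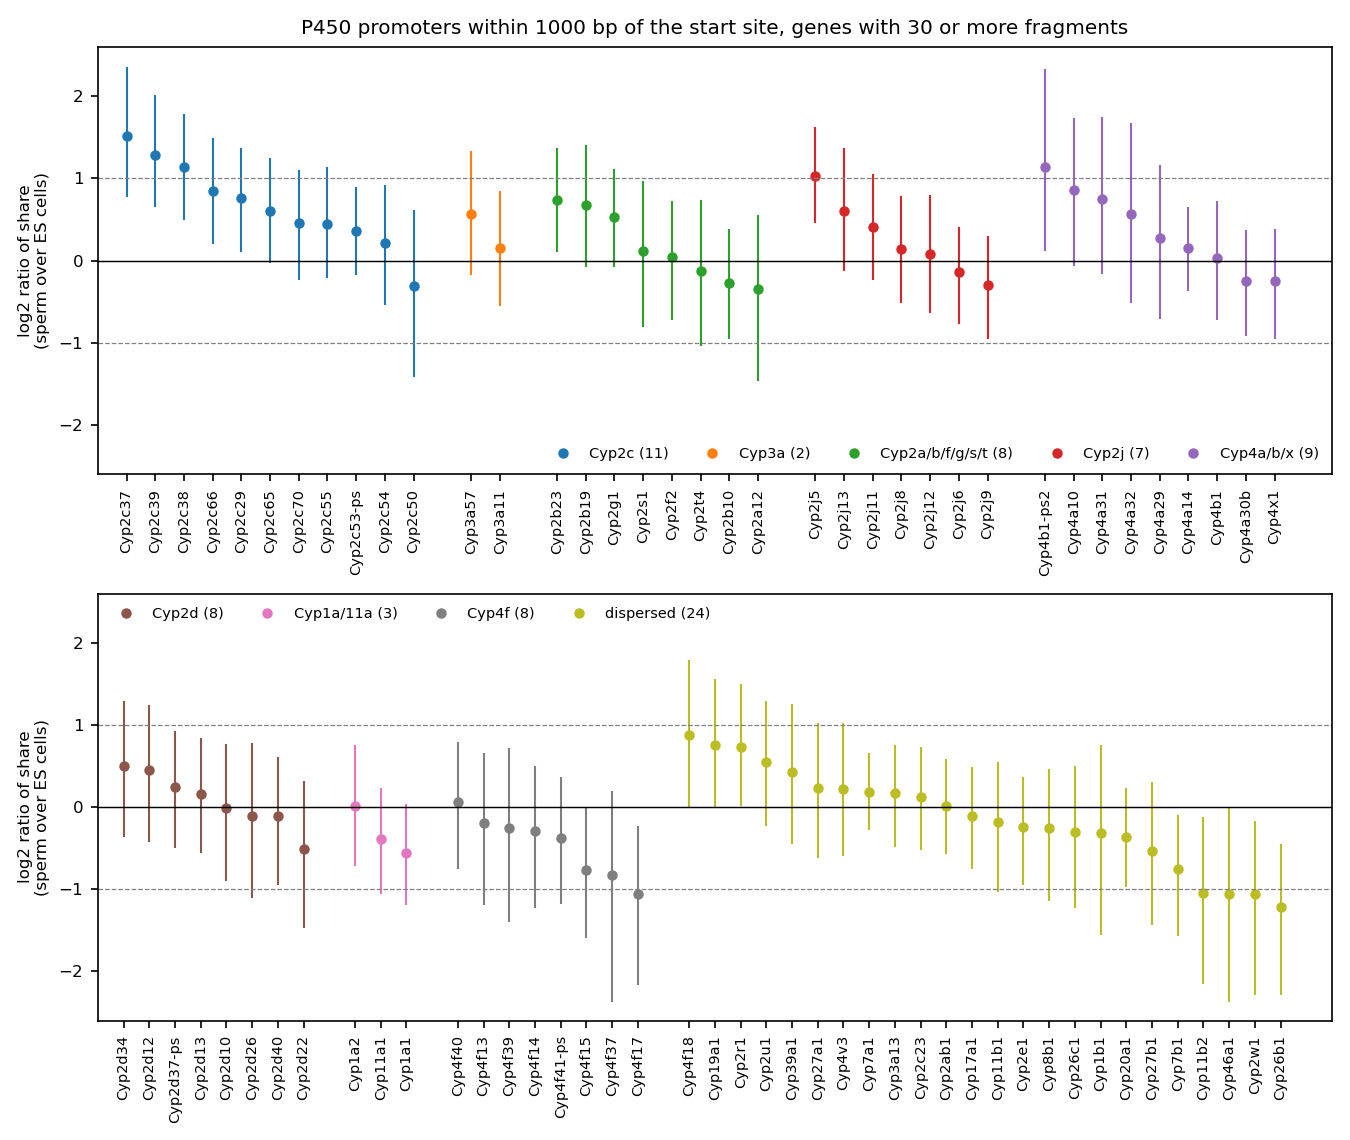
Log2 ratio of each promoter's share, sperm of the standard digestion over ES cells (y axis), for the 80 P450 genes with 30 or more fragments (x axis), grouped by cluster with the number of genes in brackets; points are single genes, lines exact 95% intervals for counting error, and dashed lines mark 2-fold. In the Cyp2c cluster 10 of 11 genes lie above 0 and in the Cyp4f cluster 7 of 8 lie below.

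The Cyp2c cluster, whose liver enzymes oxidise drugs and arachidonic acid, had the highest ratio of the 8 clusters. Its 15 genes (chromosome 19, start sites 39081508 to 40261776, mm9) held 486 fragments in sperm and 446 in ES cells, a pooled log2 ratio of 0.70 (0.51 to 0.89), and 10 of the 11 genes with enough depth were above 0. Cyp2c37 (start site 40066913) had 43.0 fragments in sperm and 22 in ES cells, a log2 ratio of 1.52 (0.77 to 2.35), the highest of the 80 genes. Cyp2c39 had 51.6 in sperm and 31.3 in ES cells (1.28, 0.65 to 2.01) and Cyp2c38 53.2 in sperm and 35.6 in ES cells (1.14, 0.50 to 1.79). Cyp2c50 was the lowest of the cluster, with 14.3 fragments in sperm and 27.2 in ES cells (-0.31, -1.42 to 0.61). The 21 other genes within 1 Mb of the cluster had a pooled ratio of -0.18 (-0.35 to -0.02), and the 10 of them that are not high-CpG had -0.24 (-0.47 to -0.01).

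The other clusters of foreign-compound and fatty-acid genes were nearer to 0. The Cyp2j cluster on chromosome 4, whose enzymes epoxidise arachidonic acid, had a pooled log2 ratio of 0.25 (0.02 to 0.48) over 7 genes. In it Cyp2j5 (start site 96330810) had 62.5 fragments in sperm and 45.4 in ES cells (1.03, 0.46 to 1.63), and Cyp2j9 35.3 in sperm and 65.5 in ES cells (-0.30, -0.95 to 0.30). Its 5 neighbours outside the family were higher still, at 0.61 (0.34 to 0.89). The cluster of Cyp2a, Cyp2b, Cyp2f, Cyp2g, Cyp2s and Cyp2t genes on chromosome 7, which holds the drug- and nicotine-oxidising enzymes, had 0.26 (0.02 to 0.50) over 13 genes. Its range ran from Cyp2a12, with 14.5 fragments in sperm and 28.4 in ES cells (-0.35), to Cyp2b23, with 46.7 in sperm and 41.8 in ES cells (0.73, 0.11 to 1.37). The Cyp2d cluster on chromosome 15 had 0.17 (-0.09 to 0.43) over 10 genes, from Cyp2d22 at -0.51 to Cyp2d34 at 0.50, both with intervals that hold 0.

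The Cyp4a, Cyp4b and Cyp4x cluster on chromosome 4, of fatty-acid hydroxylases, had a pooled log2 ratio of 0.20 (-0.04 to 0.44) over 11 genes. Its highest gene was Cyp4b1-ps2, a pseudogene, with 20.1 fragments in sperm and 13.3 in ES cells (1.14, 0.12 to 2.33). With counts divided by the mean copies of each library, the interval of Cyp4b1-ps2 was -0.04 to 2.50 and held 0. The lowest gene of the cluster was Cyp4x1, with 31.3 in sperm and 56.4 in ES cells (-0.25, -0.96 to 0.38). The Cyp3a cluster on chromosome 5, the main drug-clearing subfamily of the liver, had 0.55 (0.12 to 0.97) over 8 genes but only 95 fragments in sperm and 96.8 in ES cells, and 7 of the 8 have promoters near-identical to that of another member. Just 2 of its genes were deep enough, Cyp3a57 with 32.0 fragments in sperm and 32.3 in ES cells (0.56, -0.18 to 1.33) and Cyp3a11 with 31.7 in sperm and 42.8 in ES cells (0.15, -0.56 to 0.84). Pooled over this pair the ratio was 0.35 (-0.16 to 0.85), so the interval above 0 rests on the genes with few fragments.

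The Cyp4f cluster and the Cyp1a and Cyp11a cluster were below 0. The Cyp4f cluster on chromosome 17, whose enzymes hydroxylate leukotrienes and vitamin E, had a pooled log2 ratio of -0.46 (-0.75 to -0.17) over 9 genes, with 148 fragments in sperm and 303 in ES cells. Of its 8 deep genes 7 were below 0. Cyp4f37, also among the 6 lowest genes, had 8.27 fragments in sperm and 23.5 in ES cells (-0.83, -2.37 to 0.19). Cyp4f17 had 13.1 fragments in sperm and 42.7 in ES cells (-1.06, -2.17 to -0.23), and the highest, Cyp4f40, had 26.2 in sperm and 37.8 in ES cells (0.06, -0.75 to 0.79). The 52 other genes within 1 Mb of this cluster had -0.28 (-0.39 to -0.18), on the same side of 0. The smallest cluster, on chromosome 9, joins the dioxin-inducible genes Cyp1a1 and Cyp1a2 to Cyp11a1, which makes pregnenolone from cholesterol, and had -0.38 (-0.75 to -0.01). Its 39 neighbours within 1 Mb had a close value, -0.33 (-0.45 to -0.20). Cyp1a1 had 33.8 fragments in sperm and 75.3 in ES cells (-0.56, -1.19 to 0.04), Cyp11a1 32.1 in sperm and 63.4 in ES cells (-0.38, -1.06 to 0.23) and Cyp1a2 27.6 in sperm and 41.4 in ES cells (0.01, -0.72 to 0.75).

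P450 promoters poor in GC had the higher ratios. Over the 57 deep P450 genes with a RefSeq promoter, Spearman's rho between GC content and log2 ratio was -0.51 (Pearson's r -0.58). The points share 1 pair of libraries and many of them a gene family. Over all 13698 genes with both values rho was -0.40. The promoters of the 9 such Cyp2c genes had a median GC content of 37% (34.3% to 44.7%) and a median log2 ratio of 0.76, and 88.9% of them were above 0. All 1814 genes whose promoter lay in that GC range had a median of 0.47, with 80.7% above 0, so most promoters of this composition were higher in sperm. The 673 low-CpG genes in that range had a median of 0.54, with 86.3% above 0. The 6 Cyp4f promoters had a median of 54.2% GC (46.3% to 58%) and a median log2 ratio of -0.27, with 16.7% above 0, and the 4986 genes in that range had a median of -0.10, with 43.7% above 0. The 827 low-CpG genes in the Cyp4f range had a median of -0.06, with 45.8% above 0. Clustered and dispersed deep members differed here too, with a median GC content of 48% in 41 clustered and 55% in 16 dispersed promoters. How far base composition sets the difference between them was not tested. The first RefSeq promoter of a gene was used, and for genes with several start sites it may not be the one counted. Without genes that have several start sites in the tables or RefSeq promoters more than 1000 bp apart, such as Cyp2c39 and Cyp19a1, rho was -0.48 over 52 P450 genes and -0.42 over 11829 genes, and the median log2 ratio of the 8 Cyp2c genes left was 0.68.

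**Figure D2:**
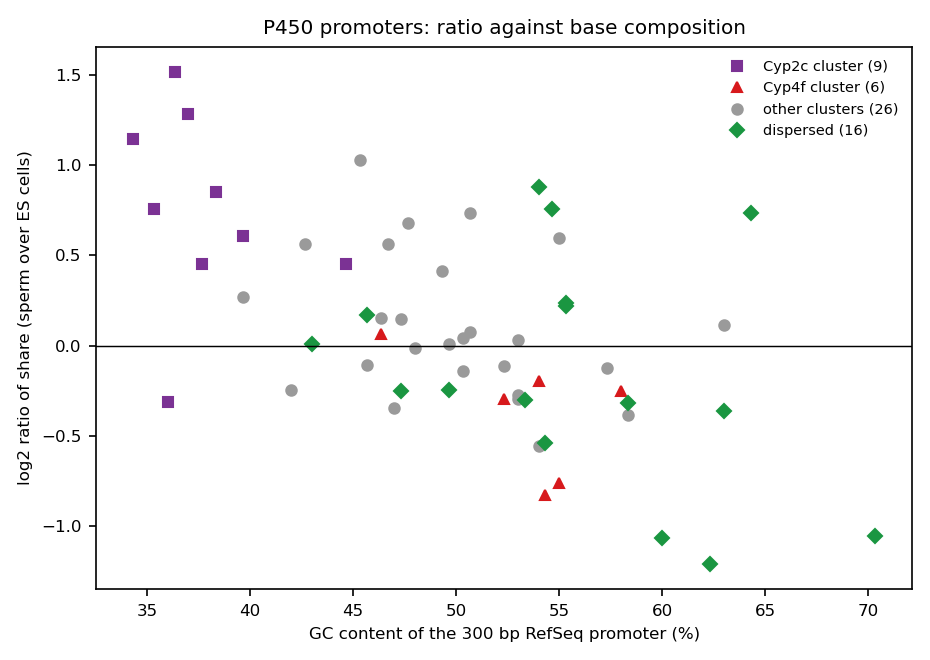
Log2 ratio of each promoter's share, sperm of the standard digestion over ES cells (y axis), against the GC content of its 300 bp RefSeq promoter (x axis), for 57 P450 genes with 30 or more fragments; points are single genes, marked by position. The Cyp2c promoters lie at 34.3% to 44.7% GC and 8 of the 9 are above 0; the Cyp4f promoters lie at 46.3% to 58% GC and 5 of the 6 are below.

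Near-identical copies held few or no fragments. Of the 76 genes with a RefSeq promoter, 13 had a promoter 90% or more identical to that of another member, and 12 of these had under 30 fragments, with medians of 4 in sperm and 1.95 in ES cells. Of the 63 with lower identity 7 had under 30, with medians of 26.2 in sperm and 36.5 in ES cells. The low genes were thus low in both libraries, and 6 of the 8 Cyp3a genes were among them. Cyp2b9 and Cyp2b13, whose promoters are 99.3% identical, had 2.95 and 3 fragments in sperm and 0 each in ES cells. Cyp2a4 and Cyp2a5, 98% identical, had 0 each in sperm and 2.82 and 1.82 in ES cells. Cyp3a41a and Cyp3a41b, the pair with the lowest sum, had 0 in both libraries, which by a limit of 3 counts for a count of 0 allows up to 3 fragments each. Their promoters (chr5:145720087-145720386 and chr5:145584681-145584980, both minus strand, GRCm38.p6) are shown with the bases that are not matched in the alignment in capitals.
Cyp3a41a: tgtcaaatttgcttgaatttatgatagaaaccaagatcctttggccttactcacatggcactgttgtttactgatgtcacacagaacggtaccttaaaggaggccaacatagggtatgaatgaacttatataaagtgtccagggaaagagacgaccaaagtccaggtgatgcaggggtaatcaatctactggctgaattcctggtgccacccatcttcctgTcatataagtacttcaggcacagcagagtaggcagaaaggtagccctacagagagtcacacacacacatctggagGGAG
Cyp3a41b: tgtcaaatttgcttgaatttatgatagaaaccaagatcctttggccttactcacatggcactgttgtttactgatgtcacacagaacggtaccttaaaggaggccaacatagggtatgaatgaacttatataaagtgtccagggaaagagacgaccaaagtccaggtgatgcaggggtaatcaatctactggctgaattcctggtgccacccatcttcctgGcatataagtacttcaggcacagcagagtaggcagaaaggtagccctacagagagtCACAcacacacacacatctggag
This pair is 98.3% identical and differs by a single base before the start site and by a longer CA repeat after it, which moves the last bases of Cyp3a41a out of the alignment. The sources used here do not say how reads that map to several places were treated, so fragments of such copies may be missing or shared, and no ratio of such a gene with under 30 fragments is read. They are part of the pooled ratios. Without the 13 near-identical genes the clustered genes had a pooled log2 ratio of 0.21 (0.12 to 0.31), the Cyp2c cluster 0.70 (0.51 to 0.89) and the Cyp2a to Cyp2t cluster 0.25 (0.003 to 0.49).

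Among the dispersed genes, those of bile acid and cholesterol metabolism went both ways. Cyp7a1, the rate-limiting enzyme of bile acid synthesis, held the most fragments of all P450 genes, 68.6 in sperm and 90.2 in ES cells, a log2 ratio of 0.19 (-0.28 to 0.66). Cyp7b1, of the alternative pathway, had 23.2 in sperm and 59.6 in ES cells (-0.75, -1.57 to -0.09). Cyp46a1, which clears cholesterol from brain, had 8.59 in sperm and 28.7 in ES cells (-1.06, -2.38 to 0.01). The interval of Cyp46a1 reached 0 although its fold was among the 5 lowest. Cyp8b1, which sets the share of cholic acid, had 22.5 in sperm and 40.6 in ES cells (-0.25), Cyp27a1, the mitochondrial sterol hydroxylase, 24.4 in sperm and 31.2 in ES cells (0.23) and Cyp39a1, an oxysterol hydroxylase, 24.4 in sperm and 27.2 in ES cells (0.42). The intervals of these 3 held 0.

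The steroid hormone genes had no common direction. Cyp11b2, the aldosterone synthase of the adrenal cortex, was more than 2-fold lower, with 11.7 fragments in sperm and 38.1 in ES cells (-1.04, -2.16 to -0.12), while its neighbour Cyp11b1, which makes corticosterone, had 23.1 in sperm and 39.8 in ES cells (-0.18, -1.03 to 0.55). Cyp17a1, which leads to androgens, had 36.9 in sperm and 60.1 in ES cells (-0.11, -0.75 to 0.49). Cyp19a1, the aromatase that makes oestrogen, had 32.3 in sperm and 28.4 in ES cells (0.76, -0.01 to 1.55). Cyp21a1, of glucocorticoid synthesis, had 5.14 fragments in sperm and 11.5 in ES cells, too few to be read. Only the interval of Cyp11b2 left out 0 among these genes.

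The retinoic acid hydroxylases, which clear that morphogen from embryonic tissue, were all below 0, with an interval that left out 0 for Cyp26b1 only. Cyp26b1 (chromosome 6, start site 84543902) had 14.4 fragments in sperm and 52.2 in ES cells, a log2 ratio of -1.21 (-2.28 to -0.44), the lowest of the 80 genes. Cyp26c1 had 19.5 in sperm and 36.5 in ES cells (-0.30, -1.23 to 0.49) and Cyp26a1, below the depth limit, 6.82 in sperm and 16.7 in ES cells (-0.60, -2.22 to 0.64). Of the vitamin D genes, the 25-hydroxylase Cyp2r1 had 35.1 in sperm and 31.4 in ES cells (0.73, 0.01 to 1.50), the only dispersed gene whose interval lay above 0. Cyp27b1, which activates vitamin D in kidney, had 17.6 in sperm and 39.3 in ES cells (-0.54, -1.43 to 0.30), and Cyp24a1, which breaks it down, 8.91 in sperm and 17.0 in ES cells (-0.28, below the depth limit). With counts divided by the mean copies of each library, the interval of Cyp2r1 no longer left out 0.

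Of the remaining dispersed genes, Cyp2w1 had 11.3 fragments in sperm and 37.2 in ES cells (-1.06, -2.29 to -0.17), the next lowest after Cyp26b1. Cyp4f18, of the fatty-acid hydroxylases, had 26.2 in sperm and 21.1 in ES cells (0.88, with an interval from just below 0 to 1.79) and was the highest. Cyp2u1, a fatty-acid hydroxylase, had 31.3 in sperm and 32.0 in ES cells (0.55, -0.23 to 1.29), and Cyp4v3 25 in sperm and 32.3 in ES cells (0.22). Cyp2e1, the ethanol-inducible enzyme of liver, had 32.2 in sperm and 57.7 in ES cells (-0.25, -0.95 to 0.37). Cyp20a1, an enzyme with no settled substrate, had 36.6 in sperm and 71.2 in ES cells (-0.36, -0.98 to 0.23), and Cyp1b1, which oxidises oestrogens, 10.9 in sperm and 21.0 in ES cells (-0.31, -1.56 to 0.76). Of these 7 genes only Cyp2w1 had an interval that left out 0.

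Around the start site, high-CpG P450 promoters were depleted in both cell types and low-CpG ones were not depleted in ES cells. At the 15 high-CpG members the signal over the 200 bp upstream was 0.264 of the flanks in sperm (0.147 to 0.458) and 0.288 in ES cells (0.171 to 0.440), where the flanks are the 1000 to 2000 bp on each side. Over the 300 bp downstream it was 0.236 in sperm (0.136 to 0.370) and 0.292 in ES cells (0.197 to 0.418). All high-CpG promoters had 0.169 in sperm and 0.316 in ES cells downstream, inside the members' intervals. At the 27 low-CpG members the upstream signal was 0.803 of the flanks in sperm (0.638 to 0.994) and 1.02 in ES cells (0.848 to 1.23).

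Downstream of the start site, low-CpG P450 promoters had less signal relative to the flanks in sperm than in ES cells, as did their class. Their signal over the 300 bp downstream was 0.666 of the flanks in sperm (0.542 to 0.809) and 1.12 in ES cells (0.965 to 1.29), so the intervals of the cell types did not overlap. All 2837 low-CpG promoters had 0.670 in sperm (0.658 to 0.683) and 0.844 in ES cells (0.831 to 0.858), and the ES cell interval of the members lay above that of the class. That difference from the class rested on 2 members, Cyp1a1 with 32.0 and Cyp7a1 with 25.5 of the 215 ES cell fragments there. Without both the ratio was 0.594 in sperm (0.472 to 0.735) and 0.888 in ES cells (0.746 to 1.05), so the ES cell interval held the value of the class, but still did not overlap that of sperm. These intervals count every stacked copy and are too narrow in ES cells. At the 10 intermediate-CpG members the downstream ratio was 0.404 in sperm (0.239 to 0.621) and 0.632 in ES cells (0.454 to 0.879), with overlapping intervals. Over all 76 clustered genes it was 0.477 in sperm (0.400 to 0.565) and 0.759 in ES cells (0.668 to 0.862), and over 27 dispersed genes 0.508 in sperm (0.390 to 0.649) and 0.583 in ES cells (0.472 to 0.715). Upstream, the clustered genes had 0.912 in sperm (0.781 to 1.06) and 0.843 in ES cells (0.724 to 0.972), and the dispersed genes 0.498 in sperm (0.364 to 0.679) and 0.716 in ES cells (0.563 to 0.891). The clustered genes thus differed between the cell types downstream of the start site and not detectably upstream of it. The lower downstream value in sperm was not particular to them, since all promoters of each class had it. All high-CpG promoters had 0.169 in sperm and 0.316 in ES cells, all intermediate-CpG ones 0.607 and 0.816, and all low-CpG ones 0.670 and 0.844.

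**Figure D3:**
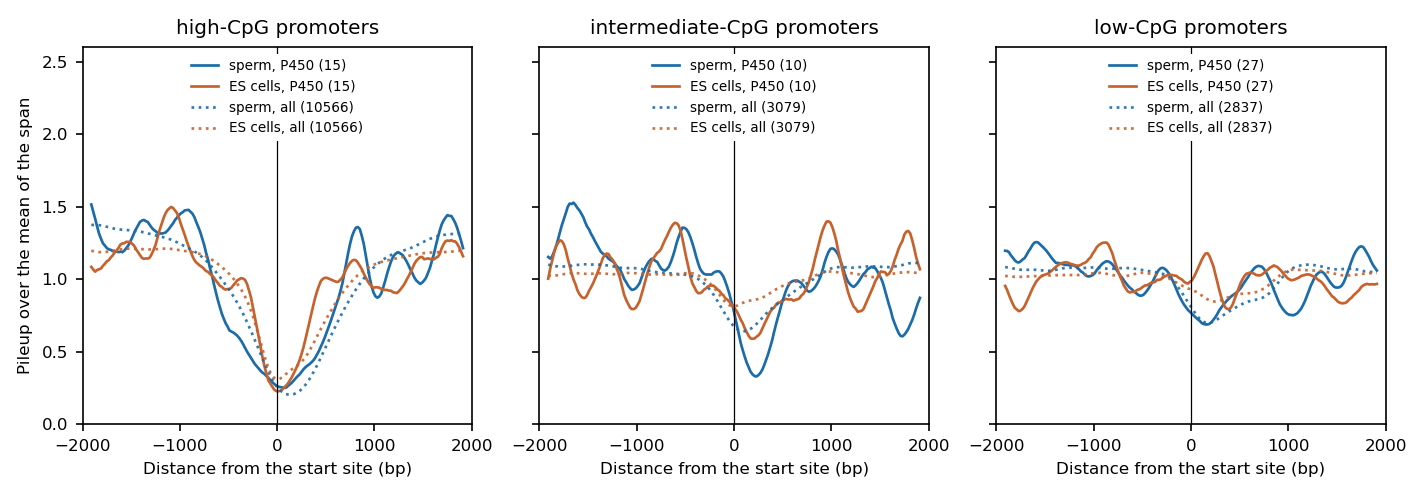
Pooled pileup of fragments over the mean of the span (y axis, smoothed over 9 bins of 20 bp) against the distance from the start site along transcription (x axis, bp), for high-, intermediate- and low-CpG promoters in sperm of the standard digestion and in ES cells; solid lines are P450 start sites, dotted lines all start sites of the class, with their numbers in brackets. High-CpG members dip at the start site in both cell types, and low-CpG members dip downstream in sperm (0.666 of the flanks) but not in ES cells (1.12).

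In unspun sperm the Cyp2c cluster, the one with the highest ratio in the standard digestion, was low. The level of a cluster is its fragments per gene over those of the average of all 24084 promoters, which is set to 1. The 15 Cyp2c genes had a level of 1.50 in sperm of the standard digestion (1.37 to 1.64) and of 0.41 in the 4 unspun sperm libraries summed (0.24 to 0.64, 18.2 fragments), against 0.93 in ES cells (0.84 to 1.01). The sperm preparations lay on opposite sides of ES cells with no overlap of the intervals. By dose the unspun level of these genes was 0.60, 0.41, 0.40 and 0.20 at 0.5, 2, 10 and 50 units, below the average promoter in each library, although the intervals at 0.5 and 10 units held 1.

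The Cyp4a, Cyp4b and Cyp4x cluster had a level of 1.12 in sperm of the standard digestion (0.99 to 1.26) and of 0.54 in unspun sperm (0.33 to 0.87), against 0.97 in ES cells (0.87 to 1.08). The Cyp3a cluster had 0.55 in the standard digestion (0.45 to 0.67) and 0.23 in unspun sperm (0.07 to 0.49), against 0.38 in ES cells (0.31 to 0.46). The Cyp2d genes had 1.01 in the standard digestion and 1.15 in unspun sperm, against 0.90 in ES cells. The Cyp2j genes, with the highest level in the standard digestion, had 1.85 there and 1.48 in unspun sperm, against 1.56 in ES cells. The Cyp4f genes had 0.76 in the standard digestion and 0.89 in unspun sperm, against 1.05 in ES cells. For the Cyp3a, Cyp2d, Cyp2j and Cyp4f clusters the unspun interval held the ES cell level. The dispersed genes had 1.17 in the standard digestion (1.08 to 1.26) and 1.07 in unspun sperm (0.86 to 1.33), against 1.26 in ES cells (1.19 to 1.34). The unspun libraries differ from the standard one in enzyme, spin and depth, and these cannot be told apart here.

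**Figure D4:**
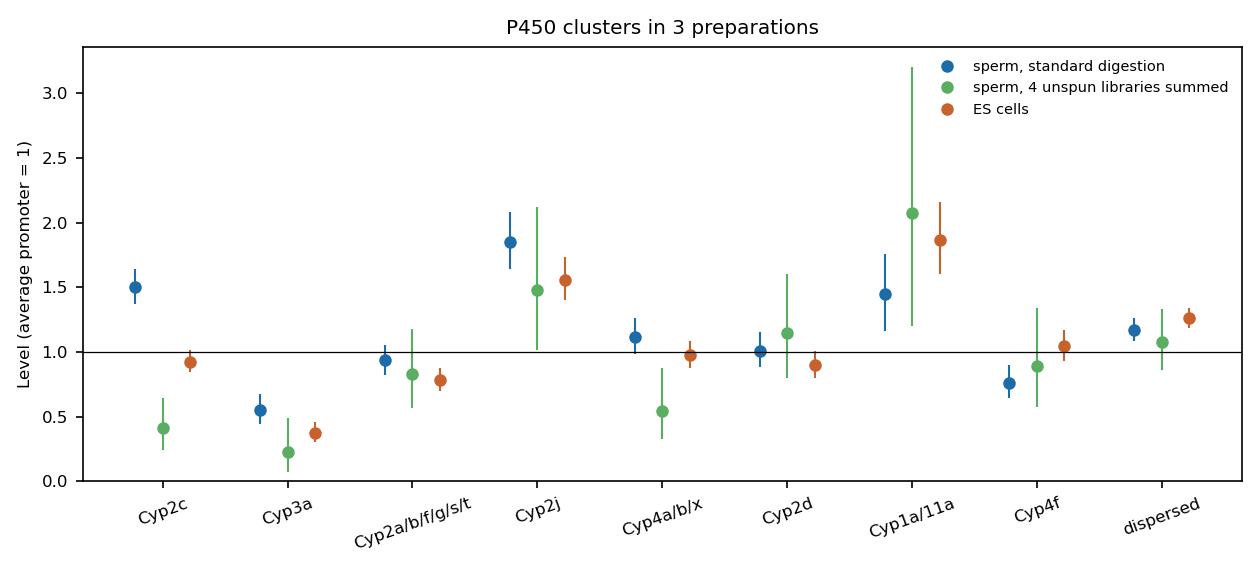
Level of each P450 cluster and of the dispersed genes (y axis, average promoter = 1) in sperm of the standard digestion, in the 4 unspun sperm libraries summed and in ES cells; clusters (x axis) run from the highest to the lowest ratio of sperm to ES cells, points are pooled genes and lines exact 95% intervals for counting error. The Cyp2c cluster lies at 1.50 in the standard digestion, 0.41 in unspun sperm and 0.93 in ES cells.

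In the unspun series the clustered P450 genes had their lowest level at the highest dose. The level of all 76 clustered genes was 1.14 at 0.5 units (0.88 to 1.43), 0.81 at 2 units (0.60 to 1.07), 0.75 at 10 units (0.54 to 1.04) and 0.42 at 50 units (0.27 to 0.65). The 27 dispersed genes had 1.01 (0.63 to 1.52), 0.68 (0.38 to 1.13), 1.31 (0.82 to 1.94) and 1.40 (0.93 to 2.08). At 50 units the intervals of the sets did not overlap, and at the other doses they did. Set against ES cells, the clustered genes had pooled log2 ratios of 0.25 (-0.12 to 0.59), -0.24 (-0.67 to 0.16), -0.33 (-0.84 to 0.13) and -1.16 (-1.84 to -0.56) at 0.5, 2, 10 and 50 units. The direction seen in the standard digestion was therefore met at the lowest dose alone, with an interval that held 0, and at the other 3 doses the ratio was below 0.

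The supernatant and pellet tables hold classed promoters only, so 52 P450 start sites were pooled there, with levels relative to the average classed promoter. The 27 low-CpG members had levels of 1.48 (1.00 to 2.06), 0.82, 0.86 and 1.02 (0.67 to 1.46) in the supernatant at 1, 5, 20 and 100 units. In the pellet they had 1.04 (0.38 to 2.27), 0.77, 0.96 and 0.51 (0.27 to 0.91), and in unspun sperm 1.64 (1.15 to 2.23), 1.10, 0.70 and 0.54 (0.28 to 0.99) at 0.5, 2, 10 and 50 units. The level at the highest dose was below that at the lowest in all 3 series, 0.688 of it in the supernatant, 0.486 in the pellet and 0.328 in unspun sperm. The first and last intervals overlapped in the supernatant and the pellet but not in unspun sperm. For all low-CpG promoters the same share was 0.738 in the supernatant, 0.646 in the pellet and 0.721 in unspun sperm. The log2 slope per doubling of units shared by the 3 series was -0.15 for low-CpG members and -0.08 for all low-CpG promoters.

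High-CpG P450 promoters had no common course. Their level in unspun sperm was 0.76 (0.37 to 1.42), 0.79, 0.96 and 1.96 (1.25 to 3.02) at rising dose. It was 1.23 (0.69 to 2.03), 0.89, 1.75 and 0.71 (0.36 to 1.28) in the supernatant and 1.72 (0.69 to 4.08), 0.38, 1.02 and 1.17 (0.66 to 1.93) in the pellet. The slope was 0.20 in unspun sperm but -0.07 in the supernatant and -0.02 in the pellet, while all high-CpG promoters had 0.03 to 0.04 in each series. These levels rest on 2 to 21.6 fragments a library. The interval left out the level of all high-CpG promoters in 2 of the 12 libraries, unspun sperm at 50 units and supernatant at 20 units (1.02 to 2.71).

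**Figure D5:**
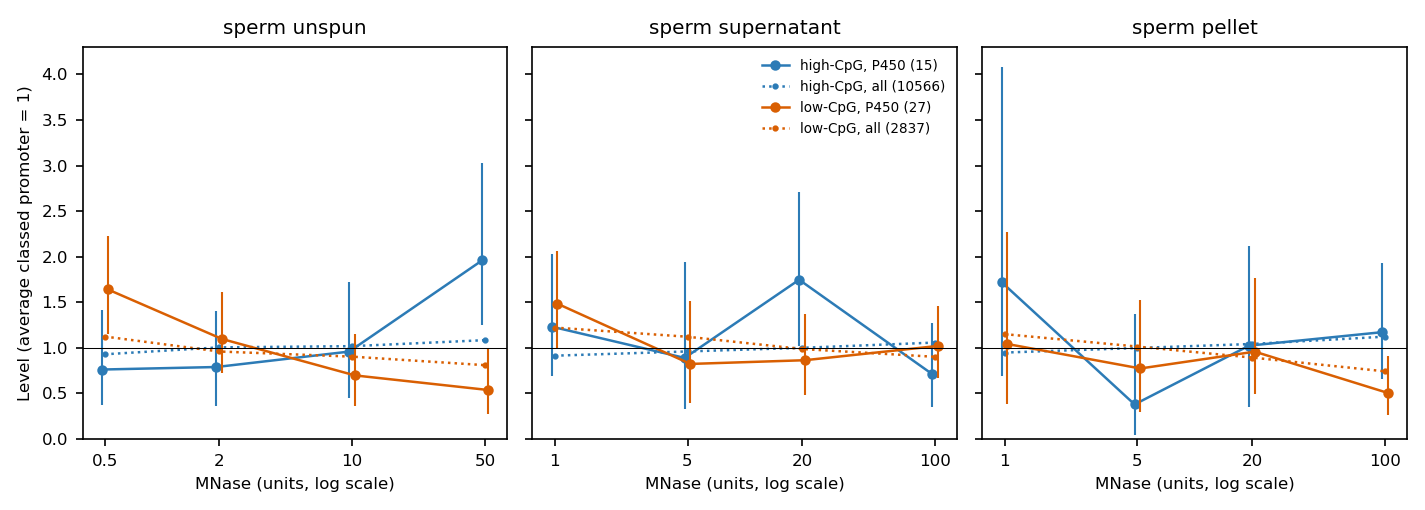
Level of P450 start sites (y axis, average classed promoter = 1) against MNase units (x axis, log scale) in unspun sperm, sperm supernatant and sperm pellet; solid lines are high- and low-CpG members with exact 95% intervals for counting error, dotted lines all promoters of the class. Low-CpG members end below their first level in each series, at 0.54, 1.02 and 0.51 against 1.64, 1.48 and 1.04.

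Between supernatant and pellet of the same dose no difference was detectable within 1000 bp for the 52 P450 start sites pooled. The pooled log2 ratio of supernatant over pellet was 0.13 (-0.80 to 1.18), 0.38 (-0.60 to 1.41), -0.21 (-0.94 to 0.53) and 0.38 (-0.31 to 1.09) at 1, 5, 20 and 100 units. These values rest on 49.5, 25, 40.7 and 46.7 fragments in the supernatant and on 11.5, 15, 28 and 30 in the pellet. By class, 1 of the intervals left out 0, that of the 10 intermediate-CpG members at 20 units, with 6 fragments in the supernatant and 11 in the pellet (-1.64, -3.36 to -0.08). Over 2000 bp to each side these members had -1.22 (-2.38 to -0.09), against 0.05 (-0.03 to 0.12) for all intermediate-CpG promoters. Over that span the low-CpG members at 100 units had 0.79 (0.09 to 1.54), with 55.7 fragments in the supernatant and 25 in the pellet. All low-CpG promoters had 0.22 (0.15 to 0.28) there, also above 0. The 9 dispersed low-CpG members had 2.21 (0.44 to 4.62), with 18.3 in the supernatant and 2.67 in the pellet. The sources used here do not say whether both fractions of a dose come from 1 digest.

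Most genes of a list of P450 partners, regulators and further P450 enzymes lay below 0. The list of 26 redox partners, regulators and P450 enzymes whose symbols the rule does not match holds 13 high-CpG promoters, and 23 genes had 30 or more fragments. The high-CpG genes Rxra, Cebpa and Pgrmc1 were below that depth. Of the 23 genes 7 were above 0 and 16 below (69.6%, against 54.6% of all genes and 66.1% of high-CpG genes). Their median log2 ratio was -0.36, against -0.08 over all genes and -0.25 over all high-CpG genes. The list also holds genes of the other classes. Of all intermediate-CpG genes 52.3% were above 0, and of all low-CpG genes 64.3%. Of the redox partners, Por, the reductase that feeds electrons to all microsomal P450 enzymes, had 10.2 fragments in sperm and 37.3 in ES cells (-1.20, -2.48 to -0.27), while Fdx1, the ferredoxin of the mitochondrial ones, had 25 in sperm and 31.6 in ES cells (0.25). Of the regulators, Ppara, which drives Cyp4a genes, had 5.91 in sperm and 24.8 in ES cells (-1.32, -3.06 to -0.16), and Nr1h3, the oxysterol receptor, 13 in sperm and 42.9 in ES cells (-1.07, -2.17 to -0.23). The 3 genes Por, Ppara and Nr1h3 were 2-fold or more lower (13.0% of the 23, against 7.94% of all genes and 11.1% of high-CpG genes). The number 2-fold or more higher was 0, against 6.28% of all genes and 2.56% of high-CpG genes. Of intermediate-CpG genes 5.06% were 2-fold or more lower and 6.58% higher. The bile acid receptor Nr1h4 (-0.58) and its target Nr0b2, which represses Cyp7a1 (-0.86), also had intervals below 0. Of the 23 genes 5 thus had an interval below 0, and 0 had one above it. Over all genes of that depth the shares were 11.7% below and 12.5% above. By class the share below was 15% of high-CpG, 9.5% of intermediate-CpG and 7.19% of low-CpG genes. The drug receptors Nr1i2 (-0.32) and Nr1i3 (0.46) and the dioxin receptor Ahr (-0.70) had intervals that held 0, as did the lanosterol demethylase Cyp51 (0.17).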

How the data were processed

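The authors deposited 2 kinds of table. For ES cells, standard sperm and unspun sperm the deposited unit is signal, the pileup in whole numbers of 135 to 165 bp fragments (per the tables' names) in 20 bp bins over 2000 bp to each side of 28015 start sites. For the supernatant and pellet series the authors deposited whole-number counts in 200 bins at 16493 classed start sites. The labels in their header step by 20 bp, but the overlap of neighbouring windows fits bins of 50 bp, which were used. Neither kind of table is scaled to depth. The submitters' processing notes name Bowtie, SAMtools 0.1.16 and the build mm9. For filters, class limits and the fragment size of the count tables: not given in the sources used here.

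Sums were divided by what an isolated fragment adds, 22 in the pileup tables and 3 in the count tables, or 2 at 1 unit. Of 17 samples 14 had a table, and the unspun ES cells, the sonicated sperm input and its histone H3 immunoprecipitation were not analysed here. Symbols came from a RefSeq gene table (GRCm38.p6), which named 27264 of the 28015 rows; start-site positions are those of the tables, in mm9. Promoter identity is matched bases over the length in a global alignment (Biopython 1.88), and exact intervals are Clopper-Pearson or Poisson (scipy 1.17.1). The interval of a ratio was tested on simulated fragments without stacked copies, so that test cannot show how far copies narrow it. The Poisson interval was not tested. Genes named are the 6 highest and 6 lowest with 30 or more fragments, the highest and lowest of each cluster and a list by role, beside examples of near-identical copies. The members and lists were chosen with earlier results of these data known.

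Alternatives were other windows, pseudocounts, scalings, cluster definitions, flanks, doses and libraries, and genes left out. Leaving out genes under 30 fragments, genes with several start sites or the members with most downstream signal was chosen after the data were seen. So was dividing counts by the mean copies of a library. For the pellets at 5 and 20 units the description label names other doses, and the title was followed.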

Additional observations from a re-analysis of the deposited data

How the results depend on the processing

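No paired analysis was possible because each group holds 1 library, so the groups share fewer than 2 replicate numbers. Within 200 bp of the start site, 16 P450 genes were 2-fold higher in sperm and 10 lower, with a median log2 ratio of 0.22, and few fragments there. Over 2000 bp to each side, 1 was 2-fold lower. Scaled to low-CpG promoters, which moves the median of all genes to -0.38, 1 was 2-fold higher and 8 lower, with a median of -0.21. Of 41 named genes, 12 changed sign within 200 bp (Cyp2j5 had -0.088, Cyp46a1 0.63 and Cyp4f37 1.84), 8 over 2000 bp (Cyp7b1 had 0.0013), 6 when so scaled and 1 with a pseudocount of 0.25. Cyp2c37 kept its sign, with 0.30 within 200 bp, as did Cyp11b2, with -0.38 over 2000 bp. With unspun sperm of 0.5, 2, 10 and 50 units in place of the standard digestion, dispersed genes had -0.33, -0.88, 0.035 and 0.17. Clustered genes had -0.24, -0.33 and -1.16 at 2, 10 and 50 units. The difference was 0.58, 0.64, -0.37 and -1.33 over the 4 doses, against 0.35 in the standard digestion. The log2 slope of all 52 P450 start sites, -0.06 per doubling, was -0.045 over 2000 bp and -0.017 without the highest doses. That of high-CpG members, 0.04, was 0.19 without the lowest doses. The cause was not tested in any of these. Other cluster definitions, near-identical or overlapping genes left out and the deepest gene left out kept both pooled ratios within their intervals, but with gaps of 250 kb and with subfamilies of 3 or more the dispersed interval left out 0, at -0.15 (-0.28 to -0.02) and -0.13 (-0.25 to -0.005). The shared slope of intermediate-CpG members was not computed, because they held 0 fragments in the pellet at 1 unit. Depth limits the titration to pooled genes.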
